A study of Mus musculus with 6 samples.

Results

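Collagens, laminins and their basement membrane partners were followed in mouse stomach RNA from mice given Riclin and mice given saline. Genes were chosen by name and not by a cut on their values, but with earlier results of these data known. All symbols of the form Col followed by a type number, a and a chain number, and all symbols of the form Lama, Lamb or Lamc with a chain number, were taken. To these were added Agrn, Hspg2, Nid1, Nid2, Fn1, Sparc, Fbln1 and Dag1. This gave 63 of the 23550 genes in the table, made up of 44 collagen chains, 11 laminin chains and 8 others. Of the 63, 43 had 1 FPKM or more in 3 or more of the 6 libraries, as had 11738 of all genes, and these were tested.

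The Riclin group had 3 libraries of stomach after 14 days of gavage with Riclin, a soluble dietary fibre, at 20 mg/kg, and the saline group had 3 libraries after gavage with normal saline, whose label repeats the dose of 20 mg/kg. Replicate numbers are 2, 3 and 4 for Riclin and 1, 2 and 4 for saline. The sources used here do not give strain, sex, age or whether these mice also received the ethanol that other groups of the study did. Nothing says that each library came from its own animal, so p-values measure the spread between libraries, which may be technical. The question behind the comparison is how Riclin acts on the defence barrier of the gastric mucosa. FPKM, the deposited unit, is a read number scaled by gene length and by library depth, so levels of different genes can be set side by side. The values imply 30884067 to 40050267 reads per library.

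Collagens are built from chains that wind into a triple helix. Types I, III and V form the fibrils of connective tissue, type VI forms beaded filaments around cells, and type IV forms the flat network of basement membranes, the thin sheets on which epithelia, vessels, muscle and nerve rest. Laminins, each made of an alpha, a beta and a gamma chain, form a second network in those sheets. Nidogens and the heparan sulphate proteoglycans perlecan (Hspg2) and agrin (Agrn) bridge both networks, and dystroglycan (Dag1) and integrins hold cells to them. In the stomach, basement membranes underlie the gland epithelium and surround the cells of the muscle layers. In the rodent forestomach the squamous epithelium is anchored to a basement membrane by hemidesmosomes.

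None of these genes differed past the adjusted threshold, and neither did any other gene (limma on log2(FPKM + 1), Benjamini-Hochberg adjusted p of 0.05, 0 of 43 and 0 of 11738). Limma's voom on whole reads recovered from the FPKM values also called 0. Below the threshold, agrin had the smallest p of the 43 genes. The less abundant type IV chains Col4a5, Col4a6 and Col4a3 came next with Col8a2, all higher in Riclin. The abundant type IV chains Col4a1 and Col4a2, which share their promoter region, had values that overlapped between the groups. Of the 43 genes, 7 had an unadjusted p under 0.05 with Riclin higher (16.3%, against 4.07% of all tested genes) and 0 with Riclin lower (against 1.83% of all tested genes, and 5.9% in either direction). In 10 of the 43, every Riclin library lay above every saline library (23.3%, against 8.14% of all tested genes), and in 0 every Riclin library lay below (against 3.02%). Col4a3, Col17a1 and Col23a1 are in both counts but passed the filter only through their Riclin libraries, and a gene that enters this way had to be higher there. Leaving these 3 out, 4 of 40 had an unadjusted p under 0.05 (10.0%) and 7 of 40 had no overlap (17.5%). The shares of all tested genes, 4.07% and 8.14%, were not reduced in the same way. Col20a1, among the 7, reached 1 FPKM in 4 libraries, every Riclin library among them.

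A positive log2 fold change was seen in 39 of the 43 genes, against 61.3% of all tested genes, and the median was 0.13 on the log2(FPKM + 1) scale, against 0.04 for all tested genes. Saline replicate 4 bears on this: it was the lowest of the 6 libraries in 31 of the 43 genes, and without it 30 of 43 were positive with a median of 0.088. When that library was left out, 5 of the 43 had an unadjusted p under 0.05 with Riclin higher (11.6%, against 3.00% of all tested genes) and 10 had no overlap, and the share of all tested genes without overlap was then 13.0%. With median-of-ratios scaling 6 of the 43 had no overlap, against 7.05% of all tested genes. In whole stomach RNA, fewer cells of a type and less RNA per cell cannot be told apart.

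**Figure D1:**
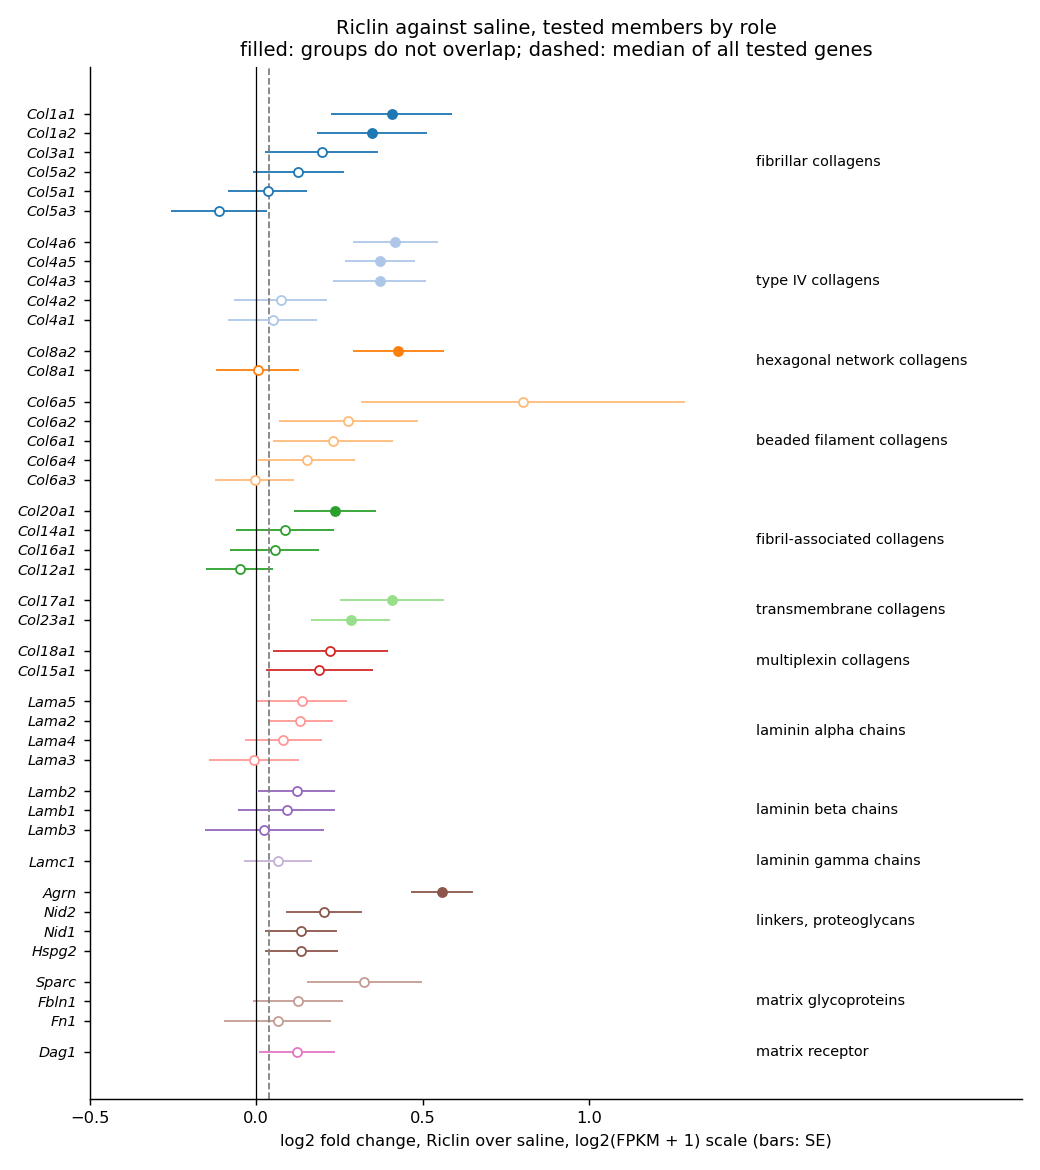
Log2 fold change of Riclin over saline on the log2(FPKM + 1) scale (horizontal axis) for the tested genes that are reported here, grouped by role; points are estimates, bars are standard errors, filled points are genes whose groups do not overlap, and the dashed line is the median of all tested genes. Agrn sits at 0.56, Col4a5, Col4a6 and Col4a3 between 0.37 and 0.42, and the other type IV chains, Col4a1 and Col4a2, at 0.049 and 0.073.

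The type IV genes come in pairs that face away from each other with their starts close together. On GRCm38, the assembly that mm10 names, Col4a1 (minus strand, chromosome 8, 11198423 to 11312826) and Col4a2 (plus strand, 11312805 to 11449287) overlap by 22 bases at their starts in GENCODE M21. The starts of Col4a4 (minus strand, chromosome 1, 82448423 to 82586849) and Col4a3 (plus strand, 82586921 to 82722059) lie 72 bases apart. Those of Col4a6 (minus strand, chromosome X, 141165403 to 141474076) and Col4a5 (plus strand, 141475385 to 141689234) lie 1309 bases apart. The promoter windows of the first and the last of these pairs are shown because their FPKM ratios varied least, 1.14-fold and 1.30-fold over the 6 libraries. The ratio of Col4a3 to Col4a4 varied 2.84-fold. Pairs on different chromosomes varied as little, with 1.14-fold for Col1a1 to Col1a2 and 1.29-fold for Nid1 to Nid2. Each window runs from 250 bases before to 50 after the RefSeq start on GRCm38.p6, 5′ to 3′ on the strand of its gene. The windows of Col4a1 (chr8:11312777-11313076, minus strand) and Col4a2 (chr8:11312555-11312854, plus strand) share 78 bases, in capitals, which read as the reverse complement of each other:
Col4a1: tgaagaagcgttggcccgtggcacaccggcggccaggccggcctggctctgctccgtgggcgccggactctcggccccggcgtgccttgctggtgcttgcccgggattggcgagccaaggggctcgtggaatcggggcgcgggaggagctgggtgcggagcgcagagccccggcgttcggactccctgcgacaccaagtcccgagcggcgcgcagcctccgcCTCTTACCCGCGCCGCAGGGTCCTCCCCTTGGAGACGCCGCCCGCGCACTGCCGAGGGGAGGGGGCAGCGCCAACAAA
Col4a2: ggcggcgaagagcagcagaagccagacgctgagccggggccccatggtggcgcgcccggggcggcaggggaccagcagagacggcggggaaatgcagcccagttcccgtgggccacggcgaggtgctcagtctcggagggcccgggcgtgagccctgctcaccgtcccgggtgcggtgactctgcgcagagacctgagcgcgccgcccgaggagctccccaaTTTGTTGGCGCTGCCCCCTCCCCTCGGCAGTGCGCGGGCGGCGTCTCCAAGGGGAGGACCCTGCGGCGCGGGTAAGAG
In the windows of Col4a5 (chrX:141475169-141475468, plus strand) and Col4a6 (chrX:141474027-141474326, minus strand), which do not overlap, capitals mark the GC box, the letters GGGCGG on either strand:
Col4a5: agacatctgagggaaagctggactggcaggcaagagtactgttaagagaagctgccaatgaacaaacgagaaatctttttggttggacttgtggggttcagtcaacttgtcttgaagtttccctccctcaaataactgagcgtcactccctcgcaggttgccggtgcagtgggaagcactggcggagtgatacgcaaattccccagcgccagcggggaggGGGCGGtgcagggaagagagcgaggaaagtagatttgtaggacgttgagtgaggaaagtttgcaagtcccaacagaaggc
Col4a6: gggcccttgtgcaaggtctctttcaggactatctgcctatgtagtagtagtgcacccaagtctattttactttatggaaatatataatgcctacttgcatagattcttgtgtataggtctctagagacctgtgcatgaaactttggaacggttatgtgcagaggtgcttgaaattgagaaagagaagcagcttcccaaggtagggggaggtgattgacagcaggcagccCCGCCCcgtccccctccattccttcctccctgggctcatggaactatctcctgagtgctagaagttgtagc
Guanine and cytosine made up 74.0% and 73.7% of the Col4a1 and Col4a2 windows, 52.7% of the Col4a5 window and 48.3% of the Col4a6 window, and the median of all 32851 RefSeq windows was 52.7%. The GC box was found 1 time in Col4a1, 3 times in Col4a2 and 1 time each in Col4a5 and Col4a6. At least 1 is held by 35.7% of all windows, and by 33 of the 53 windows matched to the genes followed here (62.3%). The letters CCAAT, on either strand, were found once each in Col4a1, Col4a2 and Col4a5 and not in Col4a6 (37.4% of all windows). The letters TATAA, on either strand, were found only in Col4a6 among these 4 windows (24.9% of all windows).

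Col4a1, the most abundant chain of the basement membrane network, measured 53.1, 54.0 and 60.3 FPKM in Riclin replicates 2, 3 and 4, against 63.0, 51.2 and 48.2 FPKM in saline replicates 1, 2 and 4. Its partner in the common trimer, Col4a2, measured 35.6, 33.5 and 37.7 FPKM in the Riclin libraries, against 39.9, 33.9 and 28.4 FPKM in the saline libraries. Both groups overlapped in both genes, with saline replicate 1 highest and saline replicate 4 lowest in Col4a1 and in Col4a2. Their log2 fold changes were 0.049 (SE 0.133) and 0.073 (SE 0.139), and both turned negative without saline replicate 4 (-0.028 and -0.048). The ratio of Col4a1 to Col4a2 FPKM within a library was 1.49, 1.61 and 1.6 in the Riclin libraries and 1.58, 1.51 and 1.70 in the saline libraries. It varied 1.14-fold over the 6 libraries, while Col4a1 itself varied from 48.2 to 63.0 FPKM. The 22 bases where the genes overlap are a small part of either transcript, and without strand their reads cannot be assigned.

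Col4a5, a chain of the networks found in specialised basement membranes such as those of kidney and of smooth muscle, measured 9.44, 9.17 and 8.98 FPKM in Riclin replicates 2, 3 and 4, against 7.42, 7.26 and 6.03 FPKM in saline replicates 1, 2 and 4. Every Riclin library lay above every saline library (log2 fold change 0.37, SE 0.104, limma adjusted p = 0.699). Col4a6, which joins Col4a5 in one of these networks, measured 3.81, 4.09 and 3.55 FPKM in the Riclin libraries, against 2.73, 3.08 and 2.07 FPKM in the saline libraries. Its groups did not overlap (log2 fold change 0.42, SE 0.127, limma adjusted p = 0.758). It was 1.45-fold higher in mean FPKM, against 1.33-fold for Col4a5. Over the alternatives tried, the log2 fold change ran from 0.29 to 0.42 for Col4a5 and from 0.30 to 0.55 for Col4a6. Without saline replicate 4, the lowest library in both, these were 0.29 and 0.30.

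Within a library, Col4a5 and Col4a6 kept to a ratio of 2.48, 2.24 and 2.53 in the Riclin libraries and 2.72, 2.36 and 2.91 in the saline libraries. The ratios that set the X-linked chains against the chromosome 8 chains, chosen after the values were seen, separated the groups. Col4a5 to Col4a1 was 0.178, 0.170 and 0.149 in the Riclin libraries and 0.118, 0.142 and 0.125 in the saline libraries. Col4a6 to Col4a2 was 0.107, 0.122 and 0.0942 in the Riclin libraries and 0.0684, 0.0908 and 0.0730 in the saline libraries. Such ratios do not depend on the scaling of a library, but Col4a5 and Col4a6 already had no overlap by themselves. Smooth muscle makes Col4a5 and Col4a6 networks, and of its marker genes 0 of 9 tested had a positive log2 fold change. The median was -0.13, 3 were lower in every Riclin library (against 3.02% of all tested genes), and their summed level was 1381, 1558 and 1599.6 FPKM in the Riclin libraries and 1605, 1956 and 1488 FPKM in the saline libraries. Other cell type lists, given below, differed: all 8 tested squamous markers, 9 of 10 endothelial markers and 4 of 12 fibroblast markers had a positive log2 fold change. Over all tested genes the share was 61.3%. The part of these cell types in the Col4a5 and Col4a6 values was not tested.

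Col4a3, a chain best known from the kidney glomerulus, measured 1.21, 1.0 and 1.14 FPKM in Riclin replicates 2, 3 and 4, against 0.929, 0.616 and 0.408 FPKM in saline replicates 1, 2 and 4, from 113 to 405 reads a library. The groups did not overlap (log2 fold change 0.37, SE 0.139, limma adjusted p = 0.791), but no saline library reached 1 FPKM. Its head-to-head neighbour Col4a4, at 0.549, 0.764 and 0.473 FPKM in the Riclin libraries, against 0.451, 0.439 and 0.482 FPKM in the saline libraries, was under the filter and was not tested. Their ratio ranged 2.84-fold over the libraries, from 0.846 to 2.40, wider than in the other type IV pairs.

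**Figure D2:**
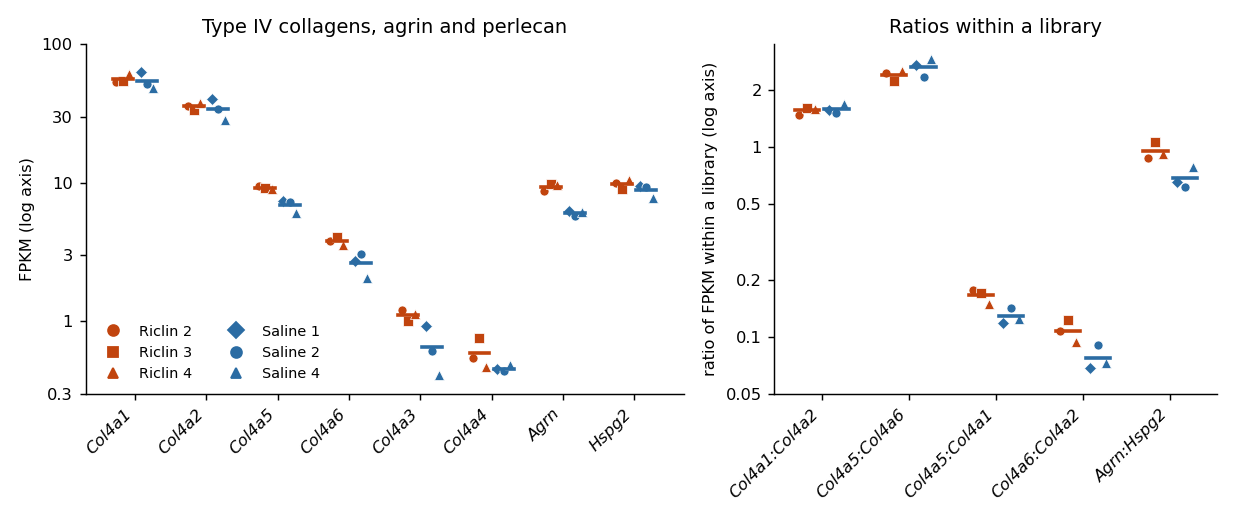
Left, FPKM on a log axis of the type IV collagen chains, agrin (Agrn) and perlecan (Hspg2); right, the ratio of FPKM of 2 genes within each library, on a log axis; Riclin in red left of saline in blue, with 1 point per library and a bar at the mean of the 3. The ratio of Col4a1 to Col4a2 stays between 1.49 and 1.70 in all libraries. Col4a5 to Col4a1, Col4a6 to Col4a2 and Agrn to Hspg2 are higher in every Riclin library. The ratios that separate the groups were chosen after the values were seen, and Col4a5, Col4a6 and Agrn already had no overlap by themselves.

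Agrin, the heparan sulphate proteoglycan known from the neuromuscular junction and also found in epithelial and vascular basement membranes, stood out among the bridging proteins. Agrn (minus strand, chromosome 4, 156165290 to 156197488) measured 8.70, 9.74 and 9.63 FPKM in Riclin replicates 2, 3 and 4, against 6.23, 5.73 and 6.13 FPKM in saline replicates 1, 2 and 4. The 3 Riclin libraries lay close together and all above the saline libraries, with a gap between 8.70 and 6.23 FPKM. The means were 9.36 ± 0.569 FPKM in Riclin and 6.03 ± 0.263 FPKM in saline (SD, n = 3 each), a 1.55-fold difference (log2 fold change 0.56, SE 0.0931, limma adjusted p = 0.346). It ranked 12 of 11738 genes by p. The unadjusted p stayed under 0.05 in all 15 alternatives, the adjusted p in none, with a limma adjusted p from 0.220 to 0.777, and the log2 fold change ran from 0.52 to 0.63. The values rest on 2394 to 4933 reads a library.

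The promoter window at the upstream RefSeq start of Agrn (chr4:156197439-156197738, minus strand, GRCm38.p6) is shown because this gene had the smallest p of the group. Capitals mark the GC box, GGGCGG on either strand:
Agrn: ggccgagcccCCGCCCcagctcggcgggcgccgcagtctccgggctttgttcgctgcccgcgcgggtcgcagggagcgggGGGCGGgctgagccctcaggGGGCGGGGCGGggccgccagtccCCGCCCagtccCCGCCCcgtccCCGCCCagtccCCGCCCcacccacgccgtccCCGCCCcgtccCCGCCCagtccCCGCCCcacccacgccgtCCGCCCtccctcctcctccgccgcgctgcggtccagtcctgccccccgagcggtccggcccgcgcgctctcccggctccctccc
The window is 83.3% guanine and cytosine and holds 12 GC boxes, 1 pair of them overlapping, a number reached or passed in 7 of 32851 RefSeq windows (0.0213%). It holds no CCAAT and no TATAA on either strand.

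Perlecan, a large proteoglycan of basement membranes, measured 9.93, 9.07 and 10.4 FPKM in Riclin replicates 2, 3 and 4, against 9.52, 9.28 and 7.79 FPKM in saline replicates 1, 2 and 4. Its groups overlapped (log2 fold change 0.13, SE 0.109, limma adjusted p = 0.883). The ratio of Agrn, which had no overlap by itself, to Hspg2 was chosen after the values were seen. It was 0.877, 1.07 and 0.925 in the Riclin libraries and 0.655, 0.618 and 0.787 in the saline libraries, higher in each Riclin library. The nidogens, short rods that tie laminin to type IV collagen, overlapped between the groups as well. Nid1 measured 19.5, 18.2 and 17.3 FPKM in the Riclin libraries, against 18.3, 15.2 and 16.4 FPKM in the saline libraries, and Nid2 measured 3.70, 2.87 and 3.27 FPKM in the Riclin libraries, against 2.91, 2.84 and 2.41 FPKM in the saline libraries. Their log2 fold changes were 0.13 and 0.20, with limma adjusted p-values of 0.882 and 0.843. Nid1 exceeded Nid2 in FPKM between 5.28-fold and 6.83-fold in each library.

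Of the 11 laminin chains in the table, 9 were tested. Of these, 8 had a positive log2 fold change, none had an unadjusted p under 0.05 or groups without overlap (against 5.9% of all tested genes at that p in either direction, and 8.14% without overlap with Riclin higher), and the median was 0.091, against 0.04 for all tested genes. Lamb3, a chain of the anchoring laminin of stratified and glandular epithelium, was the most abundant. It measured 39.6, 45.6 and 33.3 FPKM in Riclin replicates 2, 3 and 4, against 48.8, 35.4 and 33.1 FPKM in saline replicates 1, 2 and 4. Its partner Lama3 measured 1.94, 1.68 and 1.30 FPKM in the Riclin libraries, against 1.89, 1.34 and 1.72 FPKM in the saline libraries. The groups overlapped in both, with saline replicate 1 highest in Lamb3, and the direction of Lamb3 turned with the scaling.

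The chains of laminins in mesenchymal, vascular and muscle basement membranes also overlapped between the groups. Lamc1, the gamma chain of most laminins, measured 19.2, 16.9 and 18.2 FPKM in Riclin replicates 2, 3 and 4, against 18.4, 16.1 and 17.2 FPKM in saline replicates 1, 2 and 4. Lamb1 measured 14.3, 13.3 and 14.9 FPKM in the Riclin libraries, against 16.5, 12.4 and 11.2 FPKM in the saline libraries, and Lamb2, the beta chain of mature muscle and vessel laminins, 10.5, 10.0 and 11.7 FPKM in the Riclin libraries, against 10.2, 10.7 and 8.51 FPKM in the saline libraries. In all 3 the groups overlapped, with log2 fold changes of 0.066, 0.091 and 0.12. Among the alpha chains, Lama4 of endothelium had means of 8.90 ± 0.499 FPKM in Riclin and 8.39 ± 1.15 FPKM in saline (SD, n = 3 each). Lama2 of muscle had means of 3.21 ± 0.263 FPKM in Riclin and 2.84 ± 0.143 FPKM in saline (SD, n = 3 each), and Lama5 of most adult epithelia had means of 2.84 ± 0.404 FPKM in Riclin and 2.50 ± 0.486 FPKM in saline (SD, n = 3 each). Lama1, the alpha chain of early embryonic laminin, and Lamc3 stayed under 1 FPKM in every library.

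The 11 fibrillar chains took 35.3 to 38.0% of the summed FPKM of the 63 genes in a library. Together with Sparc, the chains Col3a1, Col1a2 and Col1a1 took 55.9 to 61.0% of it. Col1a1 and Col1a2, the chains of type I collagen, are on chromosomes 11 (94936224 to 94953042, plus strand) and 6 (4504814 to 4541544, plus strand). Col1a1 measured 89.9, 91.9 and 118 FPKM in Riclin replicates 2, 3 and 4, against 79.8, 87.2 and 59.4 FPKM in saline replicates 1, 2 and 4. Col1a2 measured 118, 123 and 154 FPKM in the Riclin libraries, against 113, 111 and 86.2 FPKM in the saline libraries. In both, Riclin replicate 4 was highest and saline replicate 4 lowest, and the groups did not overlap, though the gap was narrow in Col1a1, between 89.9 and 87.2 FPKM. Col1a1 was 1.32-fold higher in mean FPKM (log2 fold change 0.41, SE 0.181, limma adjusted p = 0.820) and Col1a2 1.27-fold higher (log2 fold change 0.35, SE 0.164, limma adjusted p = 0.823). Without saline replicate 4 the log2 fold changes were 0.25 and 0.22. The ratio of Col1a1 to Col1a2 was 0.763, 0.747 and 0.764 in the Riclin libraries and 0.707, 0.786 and 0.689 in the saline libraries, a 1.14-fold range across genes on different chromosomes.

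Col3a1, which forms the fine reticular fibrils of soft organs and was the most abundant collagen, measured 258, 253 and 305 FPKM in Riclin replicates 2, 3 and 4, against 260.3, 259 and 196 FPKM in saline replicates 1, 2 and 4. Its groups overlapped (log2 fold change 0.20, SE 0.169, limma adjusted p = 0.885), and the log2 fold change was 0.06 without saline replicate 4. Type V collagen, which sets fibril diameter, overlapped between the groups in its main chains. Col5a1 measured 11.9, 11.5 and 13.6 FPKM in the Riclin libraries, against 13.7, 11.6 and 10.9 FPKM in the saline libraries, and Col5a2 measured 19.1, 18.2 and 21.1 FPKM in the Riclin libraries, against 20.3, 18.7 and 14.6 FPKM in the saline libraries. Their log2 fold changes were 0.035 and 0.13, and their ratio lay between 0.618 and 0.746 in all libraries. Col5a3 had the lowest log2 fold change of the 43 genes, -0.11, with overlapping groups. Col2a1, Col11a1, Col11a2 and Col24a1, fibrillar chains of cartilage and bone, were under 1 FPKM in every library.

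**Figure D3:**
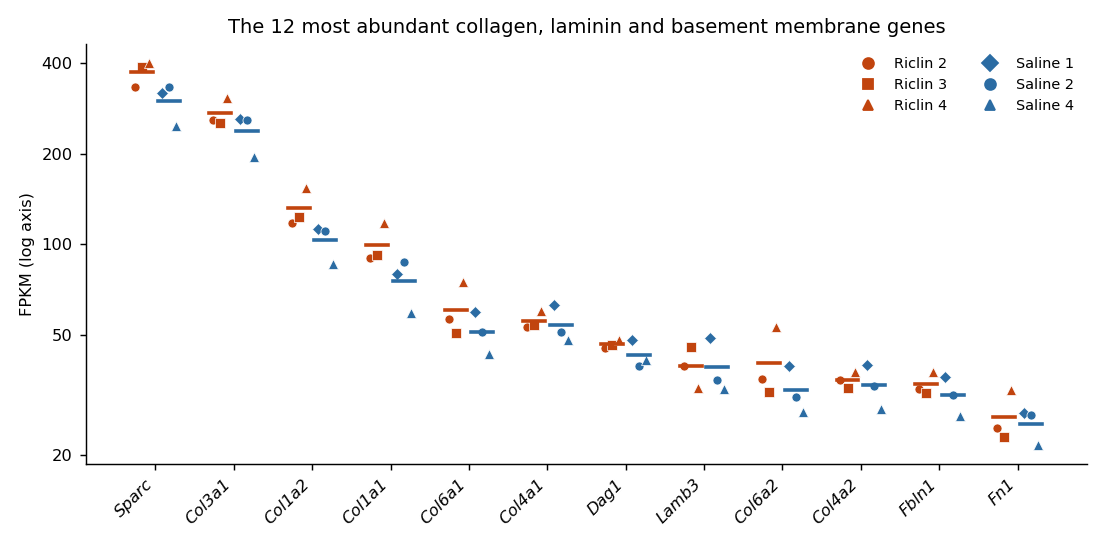
FPKM on a log axis of the 12 most abundant genes of the group in each library, Riclin in red left of saline in blue, with 1 point per library and a bar at the mean of the 3. Col1a1 and Col1a2 are the only genes of the 12 whose groups do not overlap, and saline replicate 4 is the lowest library in 11 of the 12.

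Type VI collagen chains were moderately abundant. Col6a1 measured 56.5, 51.0 and 74.9 FPKM in Riclin replicates 2, 3 and 4, against 59.8, 51.0 and 43.3 FPKM in saline replicates 1, 2 and 4, and Col6a2, its neighbour on chromosome 10, measured 35.7, 32.4 and 53.3 FPKM in the Riclin libraries, against 39.6, 31.1 and 27.7 FPKM in the saline libraries. The groups overlapped in both, and Riclin replicate 4 stood highest. The log2 fold changes of 0.23 and 0.28 were 0.073 and 0.065 without that library. Col6a1 to Col6a2 lay between 1.41 and 1.64 in all 6. Col6a3, the third chain of the classical molecule, measured 7.86, 6.48 and 6.76 FPKM in the Riclin libraries, against 7.37, 7.70 and 6.14 FPKM in the saline libraries, with a log2 fold change of -0.0049. Col6a5, a later-found chain that can replace Col6a3, had the largest log2 fold change of the 43 genes, 0.80. It was picked for this value. It measured 7.55, 3.90 and 21.9 FPKM in Riclin replicates 2, 3 and 4, against 4.56, 5.70 and 3.85 FPKM in saline replicates 1, 2 and 4. This difference rested on Riclin replicate 4: the SE was 0.486, the limma adjusted p 0.844, and the log2 fold change 0.20 without it.

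Among the remaining collagens, Col8a2, a chain of the hexagonal network collagens of vessels and cornea, measured 2.08, 1.83 and 1.99 FPKM in Riclin replicates 2, 3 and 4, against 1.46, 1.38 and 0.838 FPKM in saline replicates 1, 2 and 4. The groups did not overlap (log2 fold change 0.43, SE 0.136, limma adjusted p = 0.767), from 116 to 348 reads a library, and the log2 fold change was 0.29 without saline replicate 4. Its partner Col8a1 had means of 1.94 ± 0.291 FPKM in Riclin and 1.93 ± 0.284 FPKM in saline (SD, n = 3 each). The basement membrane zone collagens Col15a1 and Col18a1, the second of which is the source of endostatin, had means of 22.4 ± 4.33 FPKM in Riclin and 19.4 ± 2.84 FPKM in saline (SD, n = 3 each) and of 12.9 ± 3.06 FPKM in Riclin and 10.8 ± 1.62 FPKM in saline (SD, n = 3 each), both with overlap. Of the 4 tested fibril-associated chains, Col20a1 was the one without overlap, at 1.25, 1.2 and 1.55 FPKM in the Riclin libraries, against 1.17, 0.770 and 0.996 FPKM in the saline libraries (log2 fold change 0.24, SE 0.123, limma adjusted p = 0.831). Col14a1, Col12a1 and Col16a1 overlapped, with log2 fold changes from -0.049 to 0.086.

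Col17a1, the transmembrane collagen of hemidesmosomes in stratified epithelium, measured 1.67, 1.05 and 1.21 FPKM in Riclin replicates 2, 3 and 4, against 0.451, 0.932 and 0.848 FPKM in saline replicates 1, 2 and 4. Every Riclin library was higher (log2 fold change 0.41, SE 0.156, limma adjusted p = 0.791), but no saline library reached 1 FPKM. Saline replicate 1, the lowest library in Col17a1, was also the lowest in squamous marker genes, whose summed level was 754, 785 and 555 FPKM in the Riclin libraries and 136, 746 and 426 FPKM in the saline libraries. All 8 tested squamous markers of 10 had a positive log2 fold change (against 61.3% of all tested genes), with a median of 0.87, against 0.04. In 2 of the 8 every Riclin library lay above every saline library (25.0%, against 8.14% of all tested genes). The basal keratin Krt5 overlapped, at 41.9, 27.8 and 33.6 FPKM in the Riclin libraries, against 10.8, 30.8 and 22.6 FPKM in the saline libraries. Their part in the Col17a1 difference was not tested. Without saline replicate 1 the log2 fold change of Col17a1 was 0.28. Col23a1, another transmembrane collagen, measured 1.45, 1.51 and 1.02 FPKM in the Riclin libraries, against 0.869, 0.896 and 0.948 FPKM in the saline libraries (log2 fold change 0.28, SE 0.120, limma adjusted p = 0.820).

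Sparc, a calcium-binding protein that binds collagen and assists its assembly into fibrils and basement membranes, was the most abundant gene of the group. It measured 332, 388 and 399 FPKM in Riclin replicates 2, 3 and 4, against 318, 333 and 247 FPKM in saline replicates 1, 2 and 4. Riclin replicate 2 lay below saline replicate 2, so the groups overlapped (log2 fold change 0.32, SE 0.173, limma adjusted p = 0.841). The adhesive glycoprotein fibronectin, Fn1, measured 24.7, 22.9 and 32.8 FPKM in the Riclin libraries, against 27.5, 27.1 and 21.6 FPKM in the saline libraries. Fbln1, a fibulin of elastic fibres and basement membranes, measured 33.2, 32.1 and 37.8 FPKM in the Riclin libraries, against 36.2, 31.5 and 27.0 FPKM in the saline libraries. The laminin and agrin receptor Dag1 measured 45.2, 46.4 and 48.3 FPKM in the Riclin libraries, against 48.0, 39.5 and 41.2 FPKM in the saline libraries, with a log2 fold change of 0.12 (SE 0.113). In none of these did the groups separate, and the direction of Fn1 (0.064) turned without Riclin replicate 4 (-0.085).

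Of the 20 genes that were not tested, 18 were under 1 FPKM in every library. Col27a1 reached 1 FPKM in 2 libraries and Col9a3 in 1, at 1.46 FPKM in Riclin replicate 4. Col7a1, the anchoring fibril collagen below stratified epithelium, measured 0.699, 0.281 and 0.628 FPKM in the Riclin libraries, against 0.242, 0.576 and 0.571 FPKM in the saline libraries. Among chains known from cartilage, Col2a1 and Col9a1 did not pass 0.0327 FPKM in any library, from at most 5 reads, while Col9a2 reached 0.374 FPKM and Col11a2 0.665 FPKM in their highest library.

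Single libraries stood apart in these genes. Riclin replicate 4 was highest in 18 of the 43 tested genes, Riclin replicate 2 in 12 and saline replicate 1 in 9. The median deviation from the gene mean, on the log2(FPKM + 1) scale, was 0.064, -0.029 and 0.15 in the Riclin libraries, against 0.061, -0.085 and -0.24 in the saline libraries. Over all tested genes that deviation was -0.005 in Riclin replicate 4 and -0.036 in saline replicate 4. Saline replicate 4 also had the highest level of the intestinal genes Alpi, at 42.0 FPKM, and Cdx2, at 2.08 FPKM, against at most 2.0 and 0.349 FPKM elsewhere. Among the 9 intestinal markers, Apoa4 and Vil1 alone were not highest in that library. Apoa4 was lowest there, at 58.8 FPKM, against 63.5 to 101 FPKM elsewhere. The summed level of 14 pancreatic acinar markers was 84659.9, 129 and 79503 FPKM in the Riclin libraries and 30588, 125158 and 119376 FPKM in the saline libraries. All 14 had a negative log2 fold change. Of 9 intestinal markers, 5 were tested and 1 was positive, at a summed 175, 242 and 153 FPKM in the Riclin libraries and 259.9, 194 and 330.0 FPKM in the saline libraries. Of 6 adipocyte markers, 5 were tested and 0 were positive, at a summed 191, 264 and 123 FPKM in the Riclin libraries and 288, 257 and 226 FPKM in the saline libraries. The part of these tissues in the matrix values was not tested.

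**Figure D4:**
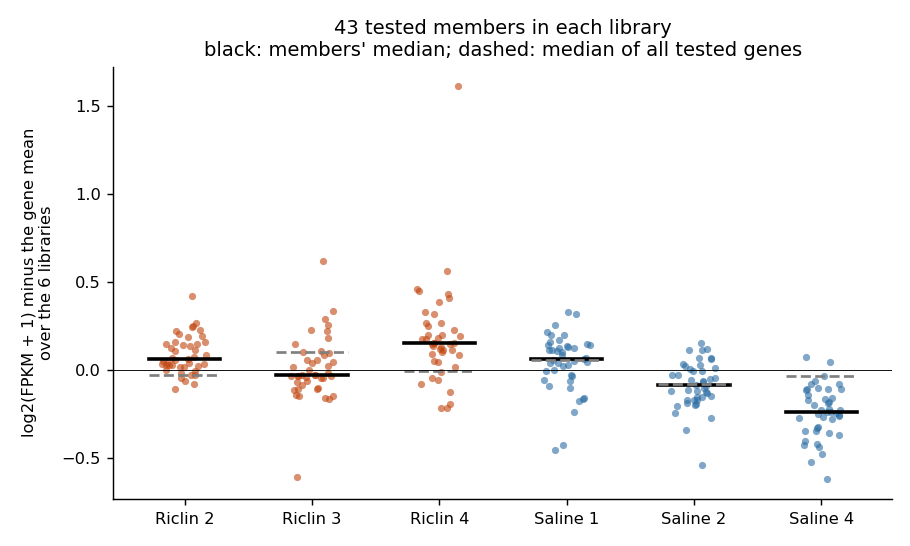
Deviation of each of the 43 tested genes from its mean over the 6 libraries, in log2(FPKM + 1), by library, Riclin in red and saline in blue; each point is 1 gene, the black line is the median of these genes and the dashed line the median of all tested genes. The black line is lowest in saline replicate 4, at -0.24, and highest in Riclin replicate 4, at 0.15, where 1 point, Col6a5, stands far above the rest.

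Marker genes of cells that make matrix were counted in the same way. Of 12 fibroblast markers, all tested, 4 had a positive log2 fold change, and the median was -0.019. Their summed level was 748, 753 and 714 FPKM in the Riclin libraries and 891, 781 and 668 FPKM in the saline libraries, with saline replicate 1 highest. Of 10 endothelial markers 9 were positive (median 0.12), at a summed 93.7, 102 and 100.5 FPKM in the Riclin libraries and 103, 87.9 and 84.2 FPKM in the saline libraries. Glial markers summed to no more than 5.36 FPKM and mesothelial markers to no more than 22.6 FPKM in any library. Stomach genes were abundant in all libraries: Gkn1, a peptide of surface mucous cells, measured 12812 to 22923 FPKM, and the proton pump gene Atp4a 1273 to 2245 FPKM. The 10 gastric epithelial markers summed to 143534, 175445 and 127219 FPKM in the Riclin libraries and 177387, 123246 and 119292 FPKM in the saline libraries. The 14 pancreatic acinar markers summed to a little more than this in saline replicates 2 and 4, at 125158 and 119376 FPKM.

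Enzymes that modify collagen chains in the endoplasmic reticulum were among the genes with the smallest p around the collagens. Of 27 tested genes of collagen synthesis and crosslinking, 5 had an unadjusted p under 0.05 with Riclin higher (18.5%, against 4.07% of all tested genes) and 1 with Riclin lower (against 1.83%). Of the 27, 0 passed the adjusted threshold, and the median log2 fold change was 0.074. P4ha2, a catalytic subunit of the prolyl 4-hydroxylase that stabilises the triple helix, measured 15.5, 15.4 and 17.2 FPKM in Riclin replicates 2, 3 and 4, against 13.6, 11.2 and 8.96 FPKM in saline replicates 1, 2 and 4 (log2 fold change 0.49, SE 0.147, limma adjusted p = 0.749). Crtap and P3h1, partners in the complex that 3-hydroxylates a proline of fibrillar chains, were higher in each Riclin library. Crtap measured 13.7, 14.5 and 14.6 FPKM in the Riclin libraries, against 11.2, 11.3 and 12 FPKM in the saline libraries, and P3h1 measured 3.13, 2.86 and 3.38 FPKM in the Riclin libraries, against 2.61, 2.23 and 2.39 FPKM in the saline libraries. The related enzyme P3h2, which acts on type IV collagen, had its 3 lowest values in Riclin, at 2.19, 1.96 and 2.23 FPKM in the Riclin libraries, against 3.16, 2.78 and 2.54 FPKM in the saline libraries (log2 fold change -0.29, SE 0.105, limma adjusted p = 0.791). P4ha2 had a log2 fold change of 0.35 without saline replicate 4, its lowest library.

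Genes of matrix turnover had a median log2 fold change of 0.033, against 0.04 for all tested genes. Of 17 tested proteases and inhibitors, 9 had a positive log2 fold change (52.9%, against 61.3% of all tested genes). Plat alone had an unadjusted p under 0.05 (against 5.9% of all tested genes in either direction). In 2 of the 17, with Ctsk among them, every Riclin library lay above (11.8%, against 8.14%), and in 1, Plat, below (against 3.02%). Plat, tissue plasminogen activator, was lower in every Riclin library, at 5.27, 5.14 and 4.62 FPKM in the Riclin libraries, against 6.70, 8.12 and 6.51 FPKM in the saline libraries (log2 fold change -0.43, SE 0.111, limma adjusted p = 0.691). Ctsk, a protease that cuts fibrillar collagen, measured 7.16, 7.54 and 8.82 FPKM in the Riclin libraries, against 7.0, 6.72 and 3.52 FPKM in the saline libraries, without overlap. Leaving out saline replicate 4 took its log2 fold change to 0.16, against 0.43 with all libraries. Mmp2 and Timp3, a gelatinase and a matrix-bound protease inhibitor, overlapped between the groups, with log2 fold changes of 0.23 and 0.17.

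Of 27 tested receptors for these proteins, 17 were positive (63.0%, against 61.3% of all tested genes), with a median of 0.0078. Itga6 and Itgb5 were the 2 without overlap, both higher in Riclin (7.41%, against 8.14% of all tested genes). Itga6, the integrin chain that binds laminin in hemidesmosomes and at gland bases, had the smallest p, at 30.4, 31.3 and 29.5 FPKM in the Riclin libraries, against 27.7, 21.2 and 25.2 FPKM in the saline libraries (log2 fold change 0.30, SE 0.120, limma adjusted p = 0.810). Sgcb, a sarcoglycan of the dystrophin complex, came next with overlapping groups, at 5.08, 5.00 and 3.83 FPKM in the Riclin libraries, against 3.54, 3.52 and 4.14 FPKM in the saline libraries. Itgb5, which pairs with Itgav to bind vitronectin, had no overlap, at 30.1, 32.5 and 29.6 FPKM in the Riclin libraries, against 28.8, 26.9 and 21.7 FPKM in the saline libraries. Of the TGF-beta pathway, a main inducer of matrix genes, 12 of 18 tested genes were positive (66.7%, against 61.3% of all tested genes, median 0.056). Its inhibitor and target Smad7 was higher in every Riclin library, at 10.3, 10.3 and 9.33 FPKM in the Riclin libraries, against 8.36, 6.97 and 7.12 FPKM in the saline libraries (log2 fold change 0.37, SE 0.104, limma adjusted p = 0.699). Smad4 was the other TGF-beta pathway gene without overlap (11.1% for the 2, against 8.14% of all tested genes with Riclin higher). Among small proteoglycans and elastic fibre genes, 16 of 23 were positive (69.6%, median 0.09) and 0 had an unadjusted p under 0.05. The groups did not overlap in 2 of them (8.7%, against 8.14% of all tested genes). These were Egfl7, a secreted endothelial protein, and Prelp, a leucine-rich proteoglycan that binds collagen and perlecan.

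**Figure D5:**
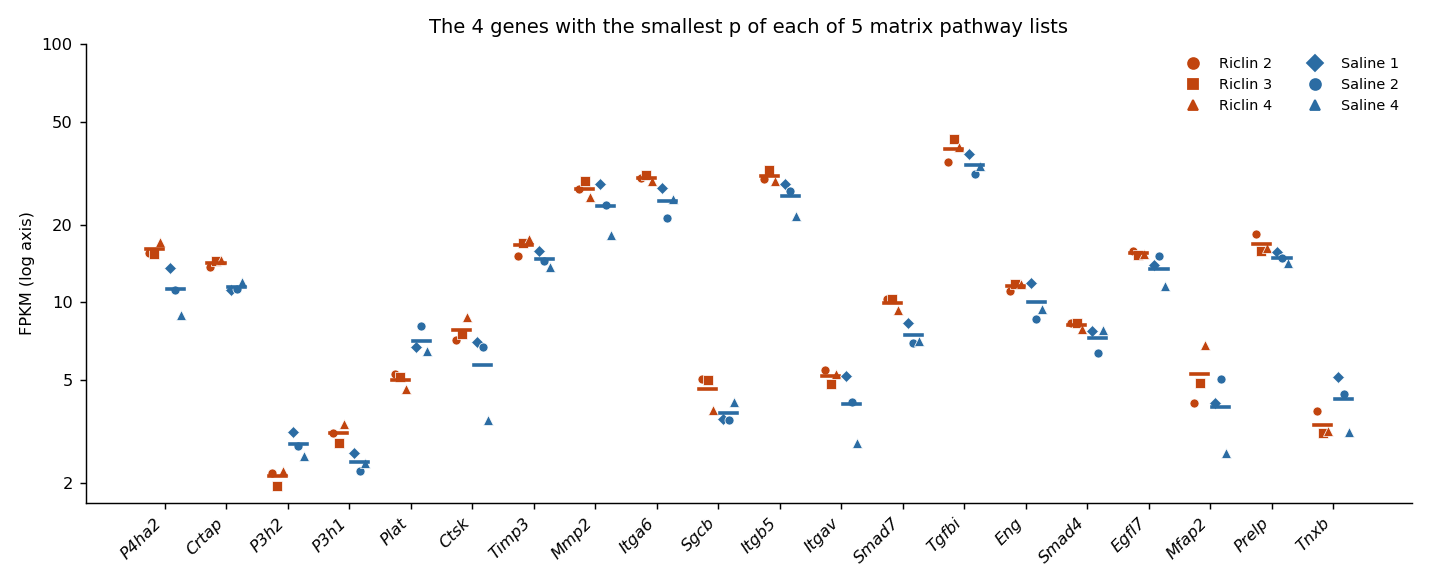
FPKM on a log axis of the 4 genes with the smallest p of each of the 5 lists, in the order collagen synthesis, proteases and inhibitors, receptors, TGF-beta pathway, small proteoglycans and elastic fibre, Riclin in red left of saline in blue, with 1 point per library and a bar at the mean of the 3. These 20 genes were picked by p, and 10 with every Riclin library above and 2 with every Riclin library below are shown as a description of them; over all 112 tested genes of the lists the numbers are 14 (12.5%, against 8.14% of all tested genes) and 2 (1.79%, against 3.02%).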

How the data were processed

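RNA was sequenced from mouse stomach in 6 libraries, 3 Riclin and 3 saline, grouped by the treatment label. Per the labels' protocols, RNA was extracted with TRIzol and libraries were made with a VAHTS Universal V6 kit. The authors deposited FPKM values for 23550 gene symbols. Per the submitters' processing notes the build was mm10 and Bowtie2 was used. The sources used here give no role or version for it, and no counter, annotation or use of strand. Whole reads behind the FPKM values were recovered for 23546 genes at a relative tolerance of 1e-09, a step checked on simulated data. The reads give depth and 1 alternative fit.

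Values were tested as log2(FPKM + 1), so that changes of low genes are understated, by limma 3.58.1 in R 4.3.3 with an intensity trend, no covariate and two-sided tests, Benjamini-Hochberg adjusted at 0.05 over 11738 genes, and checked on simulated data. Members and lists were chosen with earlier results of these data known. Values in every library are given for the 12 most abundant members, the 12 with the smallest p and the chains of the listed pairs, and of each pathway list up to 4 genes with the smallest p. Other members were named after their values were seen, and 1 member is counted but its values are not reported here. Alternatives were pseudocount 0.1, no filter, a filter at 5 FPKM, 2 scalings, a robust prior, the replicate number as a block, left-out libraries and limma's voom. Counts of groups without overlap under other settings were added after the data were seen. Positions are from GENCODE M21 for all 63 genes, and promoter windows from RefSeq on GRCm38.p6, matched by symbol for 46 of the 63. Figures were drawn with matplotlib 3.10.9 in Python 3.11.15.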

Additional observations from a re-analysis of the deposited data

How the results depend on the processing

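Over 15 alternatives, 0 of the tested members passed the adjusted threshold. Among all genes 2 passed with a robust variance prior and 0 to 1 when a library was left out, none of them a member. The count of members at an unadjusted p under 0.05 with Riclin higher was 2 with the filter at 5 FPKM, which leaves 28 members (7.14%, against 3.88% of all genes tested there). It was 4 to 7 when a library was left out, with 2.40 to 5.72% of all tested genes, the 4 without Riclin replicate 2 (against 3.53%); no alternative gave a member with Riclin lower. The members' median log2 fold change was 0.10 with median-of-ratios scaling, where the median of all genes was -0.00075, and 0.088 to 0.23 when a library was left out. Members without overlap between the groups numbered 6 with median-of-ratios scaling, where 7.05% of all tested genes had none, and 30 without the 2 libraries lowest in acinar genes, where 24.0% of all tested genes had none. When a library was left out they numbered 10 to 22, the 22 without saline replicate 1, where 21.6% of all tested genes had none. Fewer libraries make overlap rarer. The log2 fold change turned for Lamb3 when FPKM columns were scaled by the median of ratios (-0.023) or by the upper quartile (-0.012), for Col5a1 with median-of-ratios scaling (-0.0086), and for Lama3 both with the replicate block and without the 2 libraries lowest in acinar genes (0.045 in each). With libraries left out, it ran from -0.084 to 0.19 for Lamb3, -0.092 to 0.088 for Lama3, -0.032 to 0.12 for Col5a1, -0.0035 to 0.22 for Col5a2, -0.028 to 0.16 for Col4a1, -0.048 to 0.19 for Col4a2, -0.085 to 0.16 for Fn1 and -0.018 to 0.24 for Lamb1. The other 41 of 49 named genes kept their direction in every alternative run. Replicate numbers 2 and 4 occur in both groups. Deviations of the same-numbered libraries from their group means correlated at 0.222 for number 2 and 0.0109 for number 4. With 3 libraries in a group, these correlations cannot decide whether the numbers pair the libraries. With the replicate block 6 members had an unadjusted p under 0.05 with Riclin higher (against 2.79% of all tested genes) and the members' median was 0.25, by construction that without both libraries whose number is unshared. Low read numbers limit the precision of tested members near the filter, such as Col17a1, with 97 to 344 reads a library.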
